A study of Mus musculus with 12 samples.

Results

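The genes described here are 41 subunits of chromatin-remodelling and Polycomb complexes other than SWI/SNF, measured in the mouse yolk sac with and without a mutation of the SWI/SNF subunit Arid1a. They were taken by name (current or older symbol) from a list of ISWI, CHD, NuRD, INO80 and SRCAP, PRC2 and PRC1 subunits, and 41 of 41 were measured among the 13896 genes tested. RNA came from whole yolk sacs, membranes outside the embryo that make the first blood, and each array set Cy5-labelled yolk sac RNA against Cy3-labelled RNA of whole neonatal wild-type mice of mixed 129Sv and C57BL/6 background. The 4 groups, with 3 biological replicates each, were E9.5 yolk sacs homozygous for the Arid1a (Baf250a) point mutation V1068G, E9.5 wild type, E8.5 homozygous mutant and E8.5 wild type. Yolk sacs of every group had the CD1 background strain, and whether 1 yolk sac or several went into a replicate is not stated in the labels. In RNA of a whole membrane, fewer cells of a type and less RNA per cell cannot be told apart.

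Chromatin remodellers are ATPases that slide, evict or exchange nucleosomes. The ISWI enzymes space nucleosomes, CHD enzymes act at transcribed genes and enhancers or, in NuRD, together with histone deacetylases, and INO80 and SRCAP exchange the histone variant H2A.Z. Polycomb complexes keep developmental genes silent: PRC2 methylates histone H3 at lysine 27 and PRC1 ubiquitinates histone H2A. In flies, Polycomb proteins and the SWI/SNF-type Brahma complex were found as genetic opponents.

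The 3 slides held 1 array of each group, the slide number equalled the replicate number, and each group kept the same position on all slides, so that group and position cannot be told apart. In Cy5, 46.7% to 50.1% of an array's probes were well above background, and the number of arrays limits the precision (median standard error of a genotype difference 0.0674 on the log2 scale). Visceral endoderm markers were high throughout: the mean log2 ratio of the 10 markers lay between 2.02 and 2.31 in E9.5 mutants, 2.17 and 2.35 in E9.5 wild type, 1.60 and 1.68 in E8.5 mutants, and 1.55 and 1.76 in E8.5 wild type. Some arrays stood apart in markers of neighbouring tissue. The mean of the 5 measured trophoblast markers was 2.23, 2.14 and 2.56 on replicate 3 (slide 3) of E9.5 mutants, E9.5 wild type and E8.5 mutants. It was 0.53 to 0.91 on the other arrays of these groups and at most 0.93 in E8.5 wild type. The 1 measured neural marker reached 0.06 on E8.5 wild-type replicate 2, against at most -1.41 on every other array. Arid1a itself was measured at -0.27, -0.13 and -0.16 in E9.5 mutants, against -0.34, -0.32 and -0.38 in E9.5 wild type, and at -0.09, 0.07 and 0.07 in E8.5 mutants, against -0.12, 0.04 and -0.02 in E8.5 wild type (log2 ratios to the common RNA). Since an amino acid exchange can leave the RNA level as it was, these values do not check the labels.

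None of the 41 members passed the test between genotypes, which 1.44% to 4.68% of all genes passed, and 12 of them passed it between stages, which 21.6% and 23.8% of all genes passed in the mutant and in the wild type. With stage, Smarca1 rose, and Baz1a, Chd7, Chd1, Ezh2, Phc1, Srcap, Mta2, Mta3 and Ruvbl2 fell, in both genotypes. Ruvbl1 and Hdac2 fell in the wild type and gave differences of the same sign that did not pass in the mutant. These are changes of 1.59-fold at most upward and to 0.503 of the E8.5 level at most downward.

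The promoters of 3 members that changed with stage are shown because Smarca1 was the only member called higher at E9.5, while Ezh2 and Phc1 were the Polycomb members called lower. Each run is the 250 bases before the transcription start in RefSeq on GRCm38.p6, read 5′ to 3′ on the strand of the gene, with capitals for matches on either strand to the NF-Y box CCAAT, to the GC box of SP and KLF factors GGGCGG, or to the core of an ETS site CGGAAG. Smarca1 lies at chrX:47892614-47892863 (minus strand), Ezh2 at chr6:47595031-47595280 (minus strand) and Phc1 at chr6:122340228-122340477 (minus strand).
Smarca1: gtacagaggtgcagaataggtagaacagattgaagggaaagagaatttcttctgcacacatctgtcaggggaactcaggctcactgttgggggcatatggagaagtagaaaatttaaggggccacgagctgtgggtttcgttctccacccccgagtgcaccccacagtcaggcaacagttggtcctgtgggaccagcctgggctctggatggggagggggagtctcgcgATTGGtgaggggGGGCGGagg
Ezh2: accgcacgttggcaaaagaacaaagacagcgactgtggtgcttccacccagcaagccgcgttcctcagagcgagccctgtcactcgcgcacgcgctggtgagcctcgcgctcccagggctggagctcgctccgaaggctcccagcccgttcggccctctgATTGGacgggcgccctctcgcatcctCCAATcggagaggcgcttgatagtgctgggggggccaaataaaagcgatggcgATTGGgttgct
Phc1: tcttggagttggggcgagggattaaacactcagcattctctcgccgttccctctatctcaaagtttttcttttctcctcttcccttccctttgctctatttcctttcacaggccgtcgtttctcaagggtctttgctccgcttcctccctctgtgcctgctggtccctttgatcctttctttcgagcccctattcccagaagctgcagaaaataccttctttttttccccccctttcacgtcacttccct
The Ezh2 window held 3 matches, all to the NF-Y box. The Smarca1 window held 1 match to the NF-Y box and 1 to the GC box, and the Phc1 window held 0. The promoter table matched 32 of the 41 members and 8 of the 12 that changed with stage. A member was counted if any of its windows matched, and 6 members had several windows. The percentages below are of single windows, an unlike measure, and counting any window can only raise the members' counts. The NF-Y box was found in 18 of the 32 members and in 4 of the 8, against 33.8% of all 32851 promoter windows of the table. The GC box was found in 26 of the 32 and 5 of the 8, against 32.7%, and the ETS core in 5 of the 32 and 2 of the 8, against 13.6%. The TATA box, searched as TATAAA, was found in 3 of the 32 and 1 of the 8, against 12.4%, and the E2F letters TTTNNCGC, with C or G at each N, in 1 of the 32 and 0 of the 8, against 1.86%. A GC box match can share bases with an ETS core or an E2F match. A match describes the letters of a window and is no evidence of binding.

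The comparison of stages asked which members differed between E9.5 and E8.5 in each genotype. Of the 41 members, 1 rose and 9 fell in the mutant, and 1 rose and 11 fell in the wild type, by limma with Benjamini-Hochberg adjustment over all genes. Among all genes tested, 21.6% passed in the mutant and 23.8% in the wild type (11% and 12.8% rose, 10.6% and 11% fell), so the members' total share was near the background. Their split was uneven: 32 of 41 lay below 0 in the mutant and 30 in the wild type, with medians of -0.12 and -0.09 on the log2 scale against medians of -0.01 over all genes in each, of which 47.7% and 47.1% lay above 0. The count below 0 depended on the scaling, since after median centring of each array 12 and 18 members lay below 0. The medians of all genes were then 0.14 in the mutant and 0.11 in the wild type, against 0.08 and 0.04 for the members. The members' medians thus lay below those of all genes in both scalings. The sizes and calls depended on the scaling too. Smarca1, Baz1a and Chd7 in both genotypes and Chd1 in the wild type also passed with median centring. The other called members did not pass with it, at -0.27 for Ezh2, -0.17 for Phc1, -0.13 for Srcap and -0.09 to -0.02 for the rest in the wild type, and -0.21 for Phc1, -0.18 for Mta3, -0.11 for Chd1, -0.09 for Ezh2 and -0.07 to -0.02 for the rest in the mutant. Relative to the median of all genes under that centring, Ezh2, Phc1 and Srcap lay at -0.38, -0.28 and -0.23 in the wild type. In the mutant Phc1, Mta3, Chd1 and Ezh2 lay at -0.35, -0.32, -0.255 and -0.23. The E9.5 and E8.5 arrays did not overlap for 19 members in the mutant and 18 in the wild type, against 38.5% and 37.5% of all genes. The 10 members called in the mutant were also among the 12 called in the wild type. Between the stages 6 of 10 visceral endoderm markers rose in each genotype, as did 3 of 6 mesoderm markers, of which another 1 fell in the mutant. Of 9 primitive erythroid markers 2 fell in each genotype and 2 rose in the wild type. Of 7 endothelial markers 1 rose and 1 fell in the wild type, and 1 of 5 trophoblast markers fell in the mutant. In the wild type 3 of 6 heart and muscle markers fell. Their mean was -2.53, -1.62 and -2.27 on the E8.5 wild-type arrays, so 1 array stood out. The part of these tissue differences in the members' values was not tested.

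**Figure D1:**
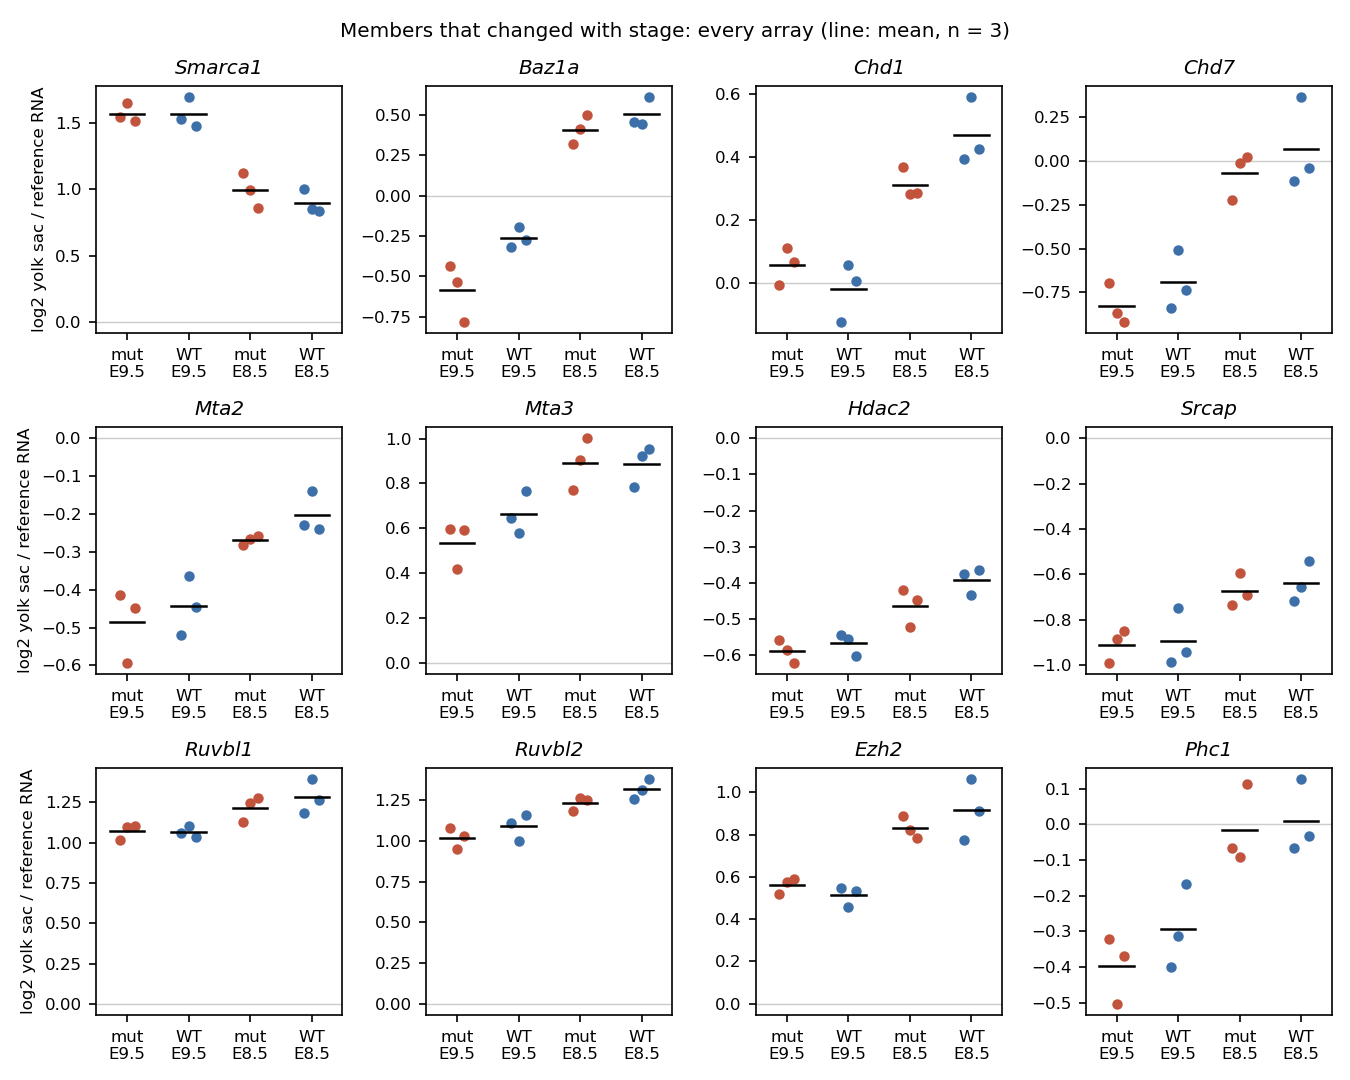
Log2 ratio of yolk sac RNA to the common RNA (vertical axis) on every array for the 12 members that changed with stage, in the 4 groups, with points for arrays and lines for means (n = 3). Smarca1 is higher on all 6 E9.5 arrays than on all 6 E8.5 arrays, and the other members shown are lower on all 6. The gap is narrow for Mta3, Srcap, Hdac2, Ruvbl1 and Ruvbl2.

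The ISWI members held both extremes. Smarca1, an ISWI ATPase of the NURF complex, had log2 ratios of 1.54, 1.66 and 1.51 in E9.5 mutants, against 1.12, 1.00 and 0.86 in E8.5 mutants. Wild-type yolk sacs had 1.53, 1.70 and 1.48 at E9.5, against 1.00, 0.85 and 0.83 at E8.5. The stages did not overlap in either genotype, and the difference was 0.58 ± 0.08 (SE; 1.49-fold, limma adjusted p = 0.00016) in the mutant and 0.67 ± 0.08 (1.59-fold, limma adjusted p = 4.3e-05) in the wild type. A second probe gave 0.60 and 0.62. Its paralogue Smarca5 (SNF2H), the ISWI ATPase of the ACF, CHRAC and WICH complexes, gave -0.16 ± 0.09 and -0.14 ± 0.09. Neither passed (limma adjusted p = 0.229 and 0.275). Other kept probes of Smarca5 fell more, by -0.28, -0.21 and -0.22 in the mutant and -0.28, -0.19 and -0.28 in the wild type.

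Baz1a, the ACF1 subunit that pairs with Smarca5, moved the other way from Smarca1. It had -0.44, -0.53 and -0.78 in E9.5 mutants, against 0.32, 0.41 and 0.50 in E8.5 mutants. It had, in the wild type, -0.32, -0.20 and -0.27 at E9.5, against 0.46, 0.44 and 0.61 at E8.5. All 6 E9.5 arrays lay below 0 and all 6 E8.5 arrays above it, with a difference of -0.99 ± 0.08 in the mutant (limma adjusted p = 2.42e-06) and -0.76 ± 0.08 in the wild type (limma adjusted p = 2.63e-05). The other kept probes gave -0.57 and -0.56 in the mutant and -0.47 and -0.50 in the wild type, so the size depended on the probe and the sign did not. The other ISWI members, Baz1b, Baz2a, Baz2b, Bptf (the large NURF subunit) and Rsf1 (a spacing factor subunit), did not pass in either genotype, with values from -0.20 to -0.02 in the mutant and -0.27 to 0.03 in the wild type.

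Among the CHD enzymes, Chd7 and Chd1 fell. Chd7, an enhancer-bound remodeller mutated in CHARGE syndrome in humans, had -0.69, -0.87 and -0.92 in E9.5 mutants, against -0.22, -0.01 and 0.02 in E8.5 mutants. The wild type gave -0.84, -0.51 and -0.73 at E9.5, against -0.11, 0.36 and -0.04 at E8.5. The stages did not overlap, with differences of -0.76 ± 0.12 in the mutant and -0.76 ± 0.12 in the wild type (limma adjusted p = 0.000462 and 0.000405). They rest on 1 probe, because the other probes of Chd7 were too dim to be kept.

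Chd1, a remodeller of transcribed genes, had -0.01, 0.11 and 0.06 in E9.5 mutants, against 0.37, 0.28 and 0.29 in E8.5 mutants. Wild-type values were -0.12, 0.06 and 0.01 at E9.5, against 0.39, 0.59 and 0.42 at E8.5. The stages did not overlap in either genotype, and the difference was -0.26 ± 0.07 in the mutant (limma adjusted p = 0.0127) and -0.49 ± 0.07 in the wild type (limma adjusted p = 0.000148). The other probes of Chd1 gave -0.36 and -0.09 in the mutant and -0.19 and -0.10 in the wild type. Its paralogue Chd2 gave 0.05 ± 0.05 and 0.13 ± 0.05 (limma adjusted p = 0.554 and 0.0763). Chd3, a NuRD ATPase, gave 0.21 ± 0.10 and 0.16 ± 0.10, and Chd4, the main NuRD ATPase, gave -0.23 ± 0.09 and -0.22 ± 0.09; none passed (limma adjusted p = 0.0756 to 0.259). Dimmer kept probes of Chd3 gave 0.43 and 0.21 in the mutant and 0.47 and 0.03 in the wild type. In the mutant Chd3 did pass with median centring and with the slide as a block (limma adjusted p = 0.0402 with the block). For Chd4 in the mutant a dimmer probe gave 0.03. Chd6, Chd8 and Chd9 did not pass either.

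In NuRD, which couples nucleosome remodelling to deacetylation, 2 of 9 members fell in the mutant and 3 in the wild type. Among all genes 10.6% and 11% fell, and 9 members are too few to tell these shares apart. The NuRD calls did not pass with median centring. Mta3, a scaffold subunit, had 0.60, 0.42 and 0.59 in E9.5 mutants, against 0.77, 0.91 and 1.00 in E8.5 mutants. Wild-type yolk sacs had 0.65, 0.58 and 0.77 at E9.5, against 0.78, 0.92 and 0.95 at E8.5. The stages did not overlap, though the wild-type arrays came close, and the differences were -0.36 ± 0.08 in the mutant and -0.22 ± 0.08 in the wild type (limma adjusted p = 0.00431 and 0.0477). A second probe gave -0.09 and -0.05. The scaffold Mta2 gave -0.22 ± 0.06 and -0.24 ± 0.06 (limma adjusted p = 0.0208 and 0.0108), and the deacetylase Hdac2 gave -0.13 ± 0.05 and -0.18 ± 0.05 (limma adjusted p = 0.0942 and 0.0214). A dimmer kept probe of Mta2 gave -0.08 and -0.07, and Hdac2 had 1 kept probe. The deacetylase Hdac1 and the histone-binding Rbbp7 lay above 0 in both genotypes and did not pass. For the histone-binding Rbbp4, E8.5 wild type read 1.13, 1.23 and 0.28, the widest spread of a member in that group, and its standard error of 0.173 was the largest of the members. One of its dimmer probes gave 0.21 in the wild type where the brightest gave -0.03.

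The INO80 and SRCAP members all lay below 0. Srcap, the ATPase that deposits H2A.Z, had -0.99, -0.89 and -0.85 in E9.5 mutants, against -0.73, -0.59 and -0.69 in E8.5 mutants. It had, in the wild type, -0.99, -0.75 and -0.94 at E9.5, against -0.72, -0.66 and -0.54 at E8.5. The stages did not overlap, and the difference was -0.24 ± 0.07 in the mutant and -0.26 ± 0.07 in the wild type (limma adjusted p = 0.031 and 0.0202). Ruvbl1 and Ruvbl2, the paired AAA+ ATPases shared by INO80, SRCAP and TIP60, gave -0.15 ± 0.06 and -0.21 ± 0.06 in the mutant (limma adjusted p = 0.114 and 0.0207) and -0.21 ± 0.06 and -0.22 ± 0.06 in the wild type (limma adjusted p = 0.0244 and 0.0137). A dimmer kept probe of Ruvbl1 gave 0.004 in the mutant and -0.08 in the wild type, and Ruvbl2 had 1 kept probe. The ATPase Ino80 gave -0.14 ± 0.06 and -0.09 ± 0.06 and did not pass (limma adjusted p = 0.139 and 0.316).

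In PRC2, the methyltransferase Ezh2 fell and its partners did not pass. Ezh2 had 0.52, 0.58 and 0.59 in E9.5 mutants, against 0.89, 0.82 and 0.78 in E8.5 mutants. The wild type gave 0.55, 0.46 and 0.54 at E9.5, against 0.78, 1.06 and 0.91 at E8.5. All 6 E9.5 arrays lay below all 6 E8.5 arrays, and the difference was -0.27 ± 0.07 in the mutant (limma adjusted p = 0.0106) and -0.40 ± 0.07 in the wild type (limma adjusted p = 0.000727). With median centring neither passed (-0.09 and -0.27, limma adjusted p = 0.615 and 0.163). Ezh2 had 1 probe. The alternative methyltransferase Ezh1 gave 0.02 ± 0.07 and 0.05 ± 0.07, but no array had its Cy3 signal well above background, so its ratio to the common RNA is a dim measurement. The core subunits Eed and Suz12 and the accessory subunit Jarid2 gave -0.14 to -0.03 in the mutant and -0.19 to -0.08 in the wild type (limma adjusted p = 0.0606 to 0.871).

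In PRC1, Phc1 fell. Phc1, a polyhomeotic subunit that clusters Polycomb complexes, had -0.32, -0.50 and -0.37 in E9.5 mutants, against -0.07, -0.09 and 0.11 in E8.5 mutants. Wild-type values were -0.40, -0.31 and -0.17 at E9.5, against -0.07, 0.13 and -0.03 at E8.5. The stages did not overlap, and the difference was -0.38 ± 0.08 in the mutant (limma adjusted p = 0.00344) and -0.30 ± 0.08 in the wild type (limma adjusted p = 0.0131). Its dimmer probes gave -0.04 and -0.02 in the mutant and -0.10 and 0.05 in the wild type, so this change rests on the brightest probe. By their brightest probes the H2A ubiquitin ligases Ring1 and Rnf2 differed little, at -0.03 for both in the mutant and -0.02 and -0.004 in the wild type. The 95% intervals of these values reached -0.14 at the lowest and 0.10 at the highest. A dimmer kept probe of Rnf2 gave 0 in the mutant and -0.19 in the wild type, and 1 of Ring1 gave 0.05 and 0.09. Cbx7, a chromodomain subunit that reads methylated H3, gave 0.19 ± 0.14 and 0.38 ± 0.14 and did not pass (limma adjusted p = 0.376 and 0.0589), and Bmi1, Cbx2 and Phc2 did not pass either.

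**Figure D2:**
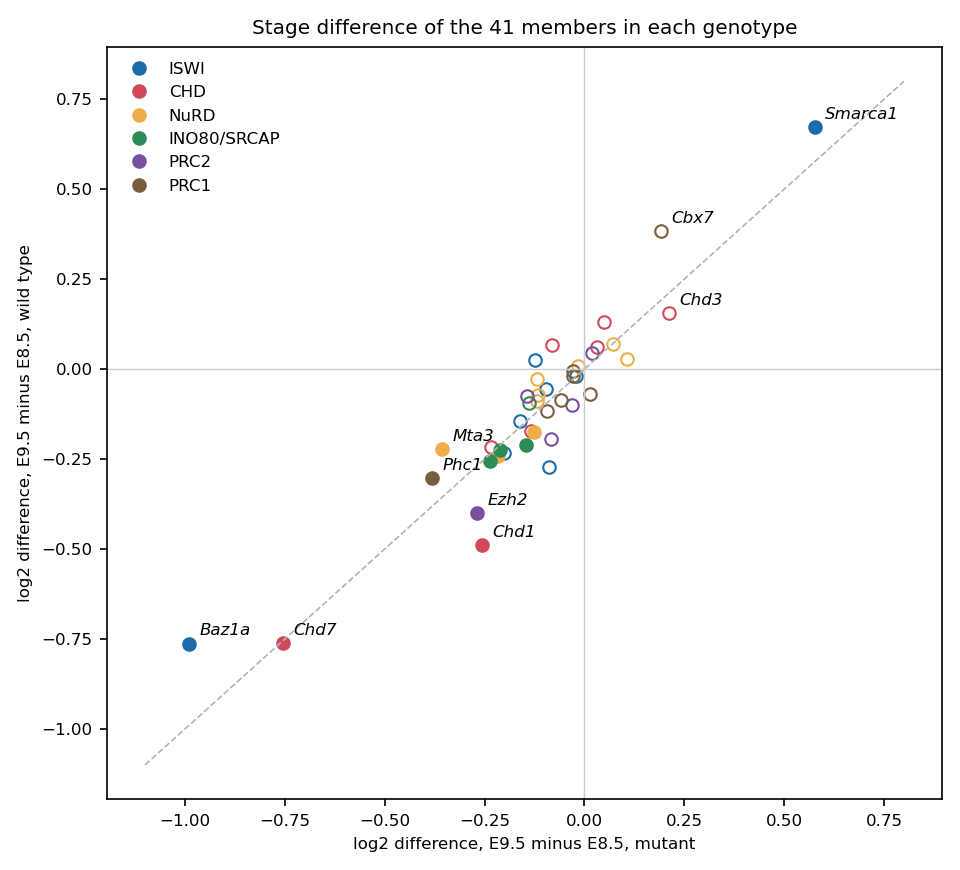
Difference between E9.5 and E8.5 (log2) in the mutant (horizontal) and in the wild type (vertical) for the 41 members, coloured by complex, with filled points for the 12 called in at least 1 genotype and a dashed line of equality. Smarca1 lies at the upper right and Baz1a and Chd7 at the lower left.

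**Figure D3:**
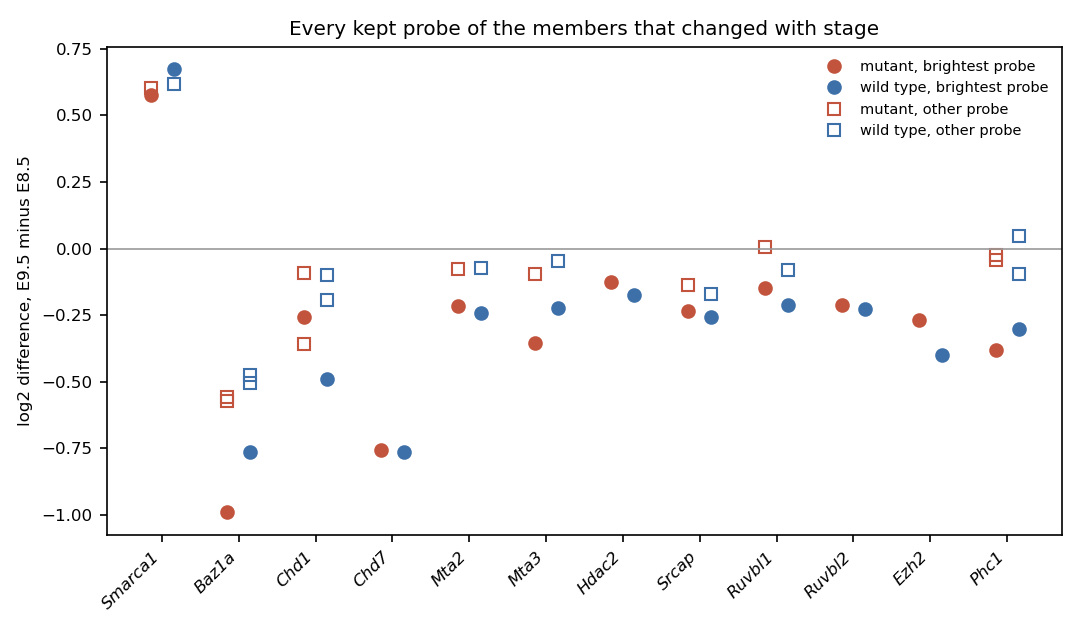
Difference between E9.5 and E8.5 (log2, vertical axis) for every kept probe of the 12 members called, with mutant left of wild type and circles for the brightest probe. The probes of Smarca1 and of Baz1a share a sign, while 1 dimmer probe of Phc1 and 1 of Ruvbl1 lie just above 0.

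The stage differences of the 2 genotypes followed each other. Across the 41 members they correlated with Pearson r = 0.928, as a description over genes from arrays on shared slides, against 0.806 over all genes, and 37 of 41 had the same sign. No member passed the interaction test, in which the genotype difference at E8.5 is taken from that at E9.5. Over all 13896 genes limma called 0 (0%), with 5.72% at an unadjusted p under 0.05 and 1 of 41 members at that level, namely Chd1 (0.23; unadjusted p = 0.0262, limma adjusted p = 0.812). A dimmer Chd1 probe gave -0.17 for the same quantity.

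Paralogous members were set side by side within each array. For 18 pairs chosen by homology, the log2 ratio of one minus that of the other was compared between E9.5 and E8.5, averaged over genotypes, by an exact two-sided permutation test of stage within genotype, whose smallest possible p is 0.005. After Benjamini-Hochberg adjustment over the 18 pairs, 8 passed, each at adjusted p = 0.0112 in this exact test. Relative to its paralogue, Smarca1 rose by 0.78 against Smarca5, Chd3 by 0.41 against Chd4 and Hdac1 by 0.22 against Hdac2. Baz1a fell by 0.83 against Baz1b, Chd1 by 0.46 against Chd2 and Phc1 by 0.27 against Phc2. The test used the brightest probe of each gene, and the sizes depended on the probe. Dimmer Phc1 probes gave -0.043 and -0.025 in the mutant and -0.095 and 0.048 in the wild type, near Phc2 at -0.06 and -0.085. Dimmer probes of Chd1, Chd4 and Rnf2 also differed from the brightest. The pairs of Ezh1 with Ezh2 (0.37) and Chd6 with Chd7 (0.81) also passed. Ezh1 and Chd6 were dim and themselves gave 0.02 to 0.06, so these pairs restate the differences of Ezh2 and Chd7. Smarca5, Baz1b, Chd2, Phc2 and Hdac1 did not pass with stage as single genes either, at -0.16 to 0.13. A pair that passed thus does not show that both of its genes changed. Ring1 and Rnf2 differed by -0.01 (exact p = 0.77), and Ruvbl1 and Ruvbl2 by 0.04 (exact p = 0.475), the smallest differences among the pairs. The members were paired with their stage values known, so these tests describe the pairs and add no separate evidence for the single genes.

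The comparison of genotypes asked whether the Arid1a mutation went with altered expression of the other remodellers. At E9.5, 0 of 41 members passed against 1.99% of all genes, at E8.5 0 of 41 against 1.44%, and for the mean of both stages 0 of 41 against 4.68%, by limma. At an unadjusted p under 0.05 there were 3, 2 and 4 members, against 12%, 12.4% and 17% of all genes. The mutant and wild-type arrays did not overlap for 8 members at E9.5 and 6 at E8.5, against 17.2% and 17.9% of all genes. The 95% interval of the difference lay within 0.3 on the log2 scale of 0 for 31 members at E9.5, 34 at E8.5 and 37 for the mean, and for these members larger differences lay outside the interval. The members' medians were -0.04 at both stages, with 17 of 41 above 0 at E9.5 and 15 at E8.5, against 50.1% and 50.8% of all genes. With median centring 32 and 36 lay below 0, against 24 and 26 as reported, with medians of -0.11 and -0.14. That centring also put the medians of all genes at -0.056 and -0.089, so these counts include a shift of all genes. With loess, the members' median was 0.005 at E9.5 without E9.5 wild-type replicate 2 and 0.005 at E8.5 without E8.5 wild-type replicate 2. The genotype differences at E9.5 and E8.5 had the same sign for 35 members (Pearson r = 0.538 across members against 0.396 over all genes, as a description).

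**Figure D4:**
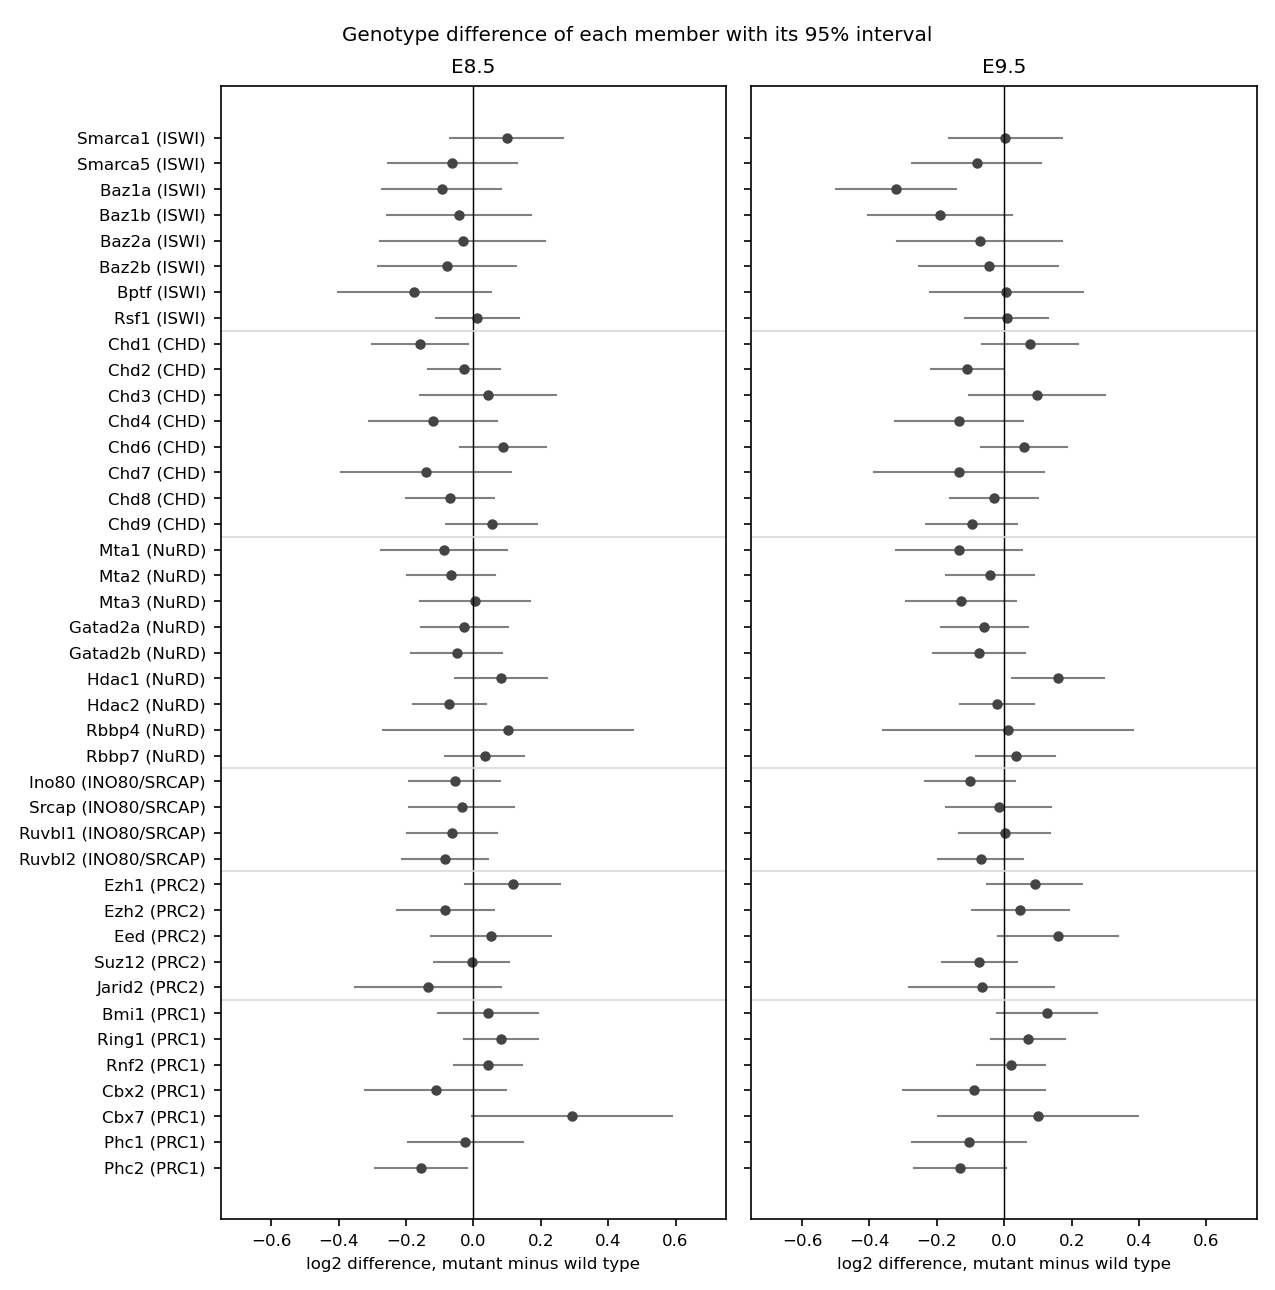
Difference between mutant and wild type (log2, horizontal axis) for the 41 members at E8.5 and at E9.5, grouped by complex, with 95% intervals of the limma fit. Most intervals cross 0, and Baz1a at E9.5 lies farthest below it.

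The members nearest the threshold are given by their values. Baz1a had -0.44, -0.53 and -0.78 in E9.5 mutants, against -0.32, -0.20 and -0.27 in E9.5 wild type. The groups did not overlap, and the difference of -0.32 ± 0.08 did not pass (limma adjusted p = 0.0677), nor did the mean of both stages, -0.21 ± 0.06 (limma adjusted p = 0.0595). It was below 0 on 3 of 3 slides at each stage. Without E9.5 mutant replicate 1 the differences were -0.40 at E9.5 (limma adjusted p = 0.0335) and -0.24 for the mean (limma adjusted p = 0.0272). With all arrays the mean also passed with the mean of the kept probes (-0.17, limma adjusted p = 0.0477) and with array weights (-0.21, limma adjusted p = 0.0379). With the slide as a block neither passed (limma adjusted p = 0.075 at E9.5 and 0.0651 for the mean). Neither passed without the 4 arrays that stood apart (-0.23 and -0.20, limma adjusted p = 0.22 and 0.099). The other kept probes of Baz1a gave -0.18 and -0.19 at E9.5. Phc2, a polyhomeotic subunit, had -0.24, -0.22 and -0.28 in E9.5 mutants against -0.15, -0.14 and -0.06 in E9.5 wild type, and -0.22, -0.20 and -0.14 in E8.5 mutants against -0.09, 0.12 and -0.12 in E8.5 wild type. Its groups did not overlap at either stage, with a mean difference of -0.14 ± 0.05 (limma adjusted p = 0.0927).

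Hdac1 had 1.22, 1.28 and 1.14 in E9.5 mutants against 1.04, 1.02 and 1.11 in E9.5 wild type, a difference of 0.16 ± 0.06 that did not pass (limma adjusted p = 0.305). Chd2 gave -0.11 ± 0.05 at E9.5 (limma adjusted p = 0.407). At E8.5, Cbx7 gave 0.29 ± 0.14, Chd1 -0.16 ± 0.07 and Ezh1 0.12 ± 0.07 (limma adjusted p = 0.337 to 0.528). Ezh1 gave 0.10 ± 0.05 for the mean of both stages (limma adjusted p = 0.277). Cbx7 was low on 1 wild-type array, at 2.43, 2.14 and 2.08 in E8.5 mutants against 2.18, 1.52 and 2.08 in E8.5 wild type. Other probes of the same gene differed in sign by over 0.2 for Chd1 (0.10), Chd6 (-0.15) and Ino80 (0.15) at E8.5 and for Baz1b (0.05) at E9.5, in each case dimmer than or as dim as the probe used. Hdac1, Rbbp4 and Phc2 lie on chromosome 4 with Arid1a, 56, 62 and 71 tested genes away, and Chd7 lies 536 genes away. A part of the flanking chromosome in their values was not tested. In the E8.5 mutants 3 of 6 mesoderm markers rose, and their part in the members' values was not tested.

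Of the other subunits of these complexes, 74 of 82 listed genes were measured, of which 1 fell between genotypes at E9.5 (Kdm2b; 1.35%) and 2 fell for the mean of both stages (2.7%), Kdm2b among them. Kdm2b, the CxxC-domain protein that brings a variant PRC1 to CpG islands, had 0.16, 0.05 and 0.18 in E9.5 mutants, against 0.41, 0.38 and 0.38 in E9.5 wild type. At E8.5 it had 0.09, 0.15 and 0.13 in mutants, against 0.19, 0.37 and 0.23 in wild type. The groups did not overlap at either stage, and Kdm2b fell by 0.26 ± 0.06 at E9.5 (limma adjusted p = 0.0304) and by 0.20 ± 0.04 for the mean of both stages (limma adjusted p = 0.0103). Among all genes 1.08% fell at E9.5 and 2.33% for the mean, so the counts of 1 and 2 of 74 were near the background. A dimmer Kdm2b probe gave -0.18 at E9.5 and 0.03 at E8.5. Leaving out 1 array at a time gave adjusted p from 0.0123 to 0.146 by limma at E9.5, with the call lost without any 1 of the E9.5 arrays except mutant replicate 3 (5 of 12 cases), and from 0.0115 to 0.0329 for the mean, where it was never lost. At E9.5 the call was also lost with median centring (-0.32, limma adjusted p = 0.354), with the processed signals (-0.365, limma adjusted p = 0.108) and without the 4 arrays that stood apart (-0.29, limma adjusted p = 0.0613), at differences no smaller than the -0.26 above. For the mean of both stages it was lost with median centring (-0.28, limma adjusted p = 0.0807) and without the 4 arrays (-0.19, limma adjusted p = 0.0641).

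**Figure D5:**
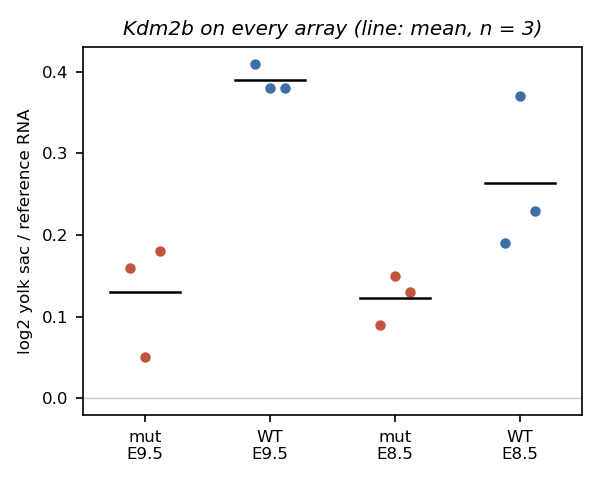
Log2 ratio of yolk sac RNA to the common RNA (vertical axis) on every array for Kdm2b in the 4 groups, with points for arrays and lines for means (n = 3). The 3 mutant arrays lie below the 3 wild-type arrays at each stage.

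With stage, 2 of these 74 genes rose and 12 fell in the mutant, and 4 rose and 13 fell in the wild type. These are 18.9% and 23% of them, against 21.6% and 23.8% of all genes, so the shares were near the background. In the mutant Pcgf3, a variant PRC1 ring-finger subunit, rose by 0.19 and Scml4 by 0.19. The largest falls there were Sall4, a zinc-finger partner of NuRD (-0.53), Cecr2, a partner of ISWI ATPases (-0.44), and Dpy30, a core subunit of H3K4 methyltransferase complexes (-0.40). In the wild type the rises included Sfmbt1 (0.31) and Cbx6, a chromodomain PRC1 subunit (0.19), and the largest falls were Cecr2 (-0.57), Dpy30 (-0.52) and the PRC2 accessory subunit Mtf2 (-0.51).

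Relative to the neonatal common RNA, 20 members were higher on all 12 arrays and 11 lower on all 12. Dyes were not swapped, so dye and tissue cannot be told apart for these levels. Cbx7 averaged a log2 ratio of 2.21, Baz1b 1.62, Baz2a 1.53 and Gatad2a, a NuRD scaffold subunit, 1.28. Chd3 averaged -1.60, Bptf -0.83, Srcap -0.78 and Chd8 -0.75. In Cy5, 39 members were well above background on all 12 arrays, with Chd6 and Ezh1 on 11.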

How the data were processed

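Yolk sac RNA (Cy5) and common RNA (Cy3) were labelled in a low-input amplification, per the labels' protocols, and scanned arrays were read with Feature Extraction 9.5.1.1, per the file headers. The deposited files hold spot and local background intensity values without normalization, and a log10 ratio of processed signals per the file headers. The authors also deposited a table of log2 ratios centred on each probe's median, which correlated with the scanner ratios at r = 0.9997 to 0.9999; how its probes were chosen is not stated in the headers or labels.

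In R 4.3.3 with limma 3.58.1, background was removed by normexp (offset 50), outlier spots and spots over 20 units below background were treated as missing, and log2 ratios were normalized by loess within arrays. Probes well above background in Cy5 on all 3 arrays of a group were kept (20064), and the brightest probe stood for a gene. Of the members' 106 probes 81 were kept, and 27 members had several. Limma was fitted to the 4 group means, with adjusted p under 0.05 as the call over 13896 genes. It was also run on simulated data with independent spread on each array, which leaves out what arrays of a slide share. Members with the largest stage changes called in each direction (up to 6) and, where a genotype comparison called fewer than 4, the 4 with the smallest p were named, as were other subunits called by genotype or among the 3 largest stage changes. Members, lists and pairs were chosen with earlier results of these data known. Alternatives covered normalization, background, filters, probes, slide, weights and samples. Same-numbered arrays of different groups correlated in 16 of 18 pairs at over 0.1. 1 item is not reported here.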

Additional observations from a re-analysis of the deposited data

How the results depend on the processing

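No tested alternative turned the direction of a comparison for which a member was named by the rule, though others turned: Hdac1 at E8.5 gave 0.08, and -0.05 with median centring. Median centring moved the median of all genes by 0.15 (mutant) and 0.12 (wild type) in the stage comparisons, and of the genes it called 1678 of 1756 and 1381 of 1458 rose, against 1522 of 2998 and 1783 of 3308 with loess. It called 4 members with stage in each genotype (2 rose and 2 fell in the mutant, 1 and 3 in the wild type), and the 10 and 12 members called with loess kept their sign, those that fell at smaller values down to -0.02 for Mta2 and Ruvbl2 in the mutant and Ruvbl1 in the wild type. Without the 4 arrays that stand apart in neighbouring-tissue markers, 7 members were called in each genotype, with Mta2, Srcap and Ruvbl2 lost in the mutant and Mta2, Mta3, Hdac2, Srcap and Ruvbl1 in the wild type (-0.26 to -0.14 there; Srcap -0.24 against -0.26). Leaving out 1 array gave 7 to 11 in the mutant and 7 to 14 in the wild type, with the lowest wild-type count without E9.5 wild-type replicate 1. For the genotype comparisons leaving out 1 array gave 0 to 1 at E9.5, 0 to 0 at E8.5 and 0 to 1 for the mean. Among single stage calls in the wild type, Srcap was lost without E9.5 replicates 1 or 3 or E8.5 replicate 3, and Phc1 without E9.5 replicate 1 or E8.5 replicate 2 and, in both genotypes, with the mean of the kept probes; in the mutant, Chd1 was lost without E8.5 replicate 1 (-0.23, limma adjusted p = 0.0528). The mean of the kept probes and array weights each called 1 member for the mean of both stages, Baz1a (-0.17 and -0.21). The number of all genes called between genotypes at E8.5 was 10 with median centring, 123 with only the arrays compared and 391 with array weights, against 200, and at E9.5 it was 26 with median centring, 173 with processed signals and 181 with the authors' table, against 277. For the mean it was 158 with median centring, against 651, and with stage in the mutant it was 1834 without the 4 arrays, against 2998. The interaction called 0 genes, and up to 12 over these alternatives (without the 4 arrays), with 0 members among them in that setting. The causes were not tested. With the replicate block, which is also the slide, 13 members were called with stage in the mutant and 18 in the wild type, including all 10 and 12, and 0 by genotype. Over all genes this block called 358 between genotypes at E9.5, 295 at E8.5 and 857 for the mean, against 277, 200 and 651. Same-numbered arrays did not correlate in every pair (-0.00719 to 0.42). Of these pairs 16 of 18 exceeded 0.1, against 1 of 36 pairs with different numbers. The main fit left the slide out. Signals of dim probes limit the precision.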
